A study of Mus musculus with 16 samples.

Results

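Immediate early genes are switched on within minutes of a stimulus, without new protein synthesis, and are switched off again soon afterwards. A set of 10, given as a list of gene symbols, were followed here in neonatal mouse ventricles: the AP-1 transcription factor genes *Fos*, *Fosb*, *Jun* and *Junb*, the zinc finger factor gene *Egr1*, the stress-responsive ATF family gene *Atf3*, *Ier2*, and the feedback genes *Dusp1*, *Zfp36* and *Btg2*. These are 10 of 51912 gene identifiers in the deposited table. All 10 were among the 20159 genes that entered the test across genes, which required 10 or more counts summed over each group.

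The study asked what loss of LRRC10, a protein of cardiomyocytes, does to the regeneration of the neonatal mouse heart. Ventricles of wild-type (WT, C57BL/6J) mice and of mice that lack *Lrrc10* in every cell (KO, on a C57BL/6 background) were sequenced after a sham surgery (SH) or a myocardial infarction (MI). With 4 libraries each, the groups are WT SH and WT MI from wild-type mice and KO SH and KO MI from knockout mice, each library from the ventricles of 1 heart. Surgery was done the day after birth under cooling anesthesia: MI pups had the left anterior descending artery tied off, and SH pups had the chest opened while the heart was neither exposed nor tied. Ventricles were collected 7 days later in all 4 groups, so the libraries show the levels at that time and not the first hours of the response. A knockout of the whole body does not tell which cell type a difference comes from, and in bulk tissue fewer cells of a type cannot be told apart from less RNA per cell.

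The products of these genes work as one early program. FOS and FOSB pair with JUN and JUNB to form AP-1, which binds DNA at target genes, and EGR1 and ATF3 bind sites of their own. DUSP1 is a phosphatase that removes phosphate from the MAP kinases that induce the program, ZFP36 (tristetraprolin) destabilises AU-rich messenger RNAs, and BTG2 restrains proliferation and promotes deadenylation. In the heart the program is known to follow stretch, adrenergic and growth factor signals and injury, and handling of a tissue before it is lysed can also start it. Some promoter elements are textbook relays of these signals: the CArG box, bound by serum response factor, and the cAMP response element with its short core TGACG, bound by the CREB and ATF factors.

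The promoters of *Fos*, *Dusp1* and *Ier2* are shown because these are the members that were lower in KO libraries with no overlap between groups in at least one comparison described below. Each stretch holds 300 bases, from 320 to 21 bases before the start of the canonical transcript, read 5′ to 3′ on the strand of the gene from GRCm39. *Fos* comes from the + strand at chr12:85520338-85520637, *Dusp1* from the - strand at chr17:26727514-26727813 and *Ier2* from the - strand at chr8:85389504-85389803. Capitals mark every match to the CArG box, to TGACGTCA, to its core TGACG on either strand (CGTCA when on the other strand) and to TATAAA.
Fos: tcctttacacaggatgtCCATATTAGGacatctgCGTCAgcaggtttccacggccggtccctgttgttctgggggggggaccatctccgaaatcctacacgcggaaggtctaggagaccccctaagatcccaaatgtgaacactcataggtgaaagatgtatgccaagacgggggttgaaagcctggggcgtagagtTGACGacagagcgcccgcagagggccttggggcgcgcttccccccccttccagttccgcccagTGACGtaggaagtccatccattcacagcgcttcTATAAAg
Dusp1: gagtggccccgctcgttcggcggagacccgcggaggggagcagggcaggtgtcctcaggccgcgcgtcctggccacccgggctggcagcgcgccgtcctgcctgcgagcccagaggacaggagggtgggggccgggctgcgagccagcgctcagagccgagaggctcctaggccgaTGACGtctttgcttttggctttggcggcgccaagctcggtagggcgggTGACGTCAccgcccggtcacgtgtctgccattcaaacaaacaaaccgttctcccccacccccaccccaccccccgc
Ier2: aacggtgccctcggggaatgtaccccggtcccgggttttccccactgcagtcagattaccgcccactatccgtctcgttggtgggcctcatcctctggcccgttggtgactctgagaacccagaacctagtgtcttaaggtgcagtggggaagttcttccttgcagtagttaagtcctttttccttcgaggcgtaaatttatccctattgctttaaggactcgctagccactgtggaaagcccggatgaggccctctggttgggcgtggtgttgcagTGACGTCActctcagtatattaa
Matches were counted on both strands in a wider window, from 500 bases before to 100 bases after the start, in 21757 protein-coding genes. The CArG box was found in *Fos*, 303 bases before the start, and in *Fosb*, and in 3.06% of all promoters. Only an exact box counted, 10 bases of CC, then A or T alone, then GG. A variant of the box or a more distant box was not counted. The full element TGACGTCA was found in *Ier2*, *Dusp1* and *Btg2*, at 43, 96 and 201 bases before the start, and in 2.85% of all promoters. Its core TGACG, which every full element contains, was found in all members but *Zfp36* and in 32.2% of all promoters. TGANTCA, the AP-1 site, was found in *Fos* outside the printed stretch and in 14.0% of all promoters, and TATAAA in *Fos* and *Junb* and in 26.2%. GCGTGGGCG, the EGR site, was in no member and in 1.03% of all promoters. These matches describe the letters in the windows and do not show a bound site.

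The libraries had between 33783874 and 57470159 counts. Counts of *Lrrc10* were 1075 to 1850 in WT SH, 1247 to 1355 in WT MI and 0 in all 8 KO libraries. All 8 cardiomyocyte markers fixed for this tissue were detected and passed the filter. The study described the groups as sex matched, but all 4 WT SH libraries held Y-linked transcripts, against 2 libraries in each of the other groups. KO MI replicates 2 and 7 were left out together in an alternative fit, for their skeletal muscle transcripts. The summed skeletal muscle markers ranged from 376 to 730 CPM in KO MI (mean 501, SD 157, n = 4). Over the other groups they ranged from 307 to 454 CPM. *Myog*, *Myod1*, *Ryr1* and *Chrna1* were too low to be tested. This sum did not single out both libraries from the rest of KO MI. Where leaving out both of them changed a call of a member, or of a listed gene between groups or in the interaction, the value without them is given.

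Levels are CPM, counts relative to the total of the TMM-scaled library (TMM is edgeR's scaling for composition). Compared per kilobase of canonical transcript, *Jun* had the highest level of the 10 genes, with a mean over the 16 libraries of 31.4 ± 8.76 CPM per kb (SD, n = 16). *Btg2* followed at 14.5 ± 2.95, *Dusp1* at 9.85 ± 2.66 and *Egr1* at 5.197 ± 1.69 CPM per kb. The next levels lay close together: *Atf3* at 2.80 ± 1.15, *Ier2* at 2.44 ± 0.304, *Fos* at 2.36 ± 1.66 and *Zfp36* at 1.91 ± 0.235 CPM per kb. *Junb* was at 1.47 ± 0.381 and *Fosb* at 0.126 ± 0.0789 CPM per kb. *Jun* exceeded *Btg2*, *Btg2* exceeded *Dusp1* and *Egr1* exceeded *Atf3* in 16 of 16 libraries, and *Dusp1* exceeded *Egr1* in 15. The order within the middle set did not hold library by library: *Atf3* exceeded *Ier2* in 9 libraries, *Ier2* exceeded *Fos* in 11 and *Fos* exceeded *Zfp36* in 8. *Fosb* was close to the limit of the data, with 4 to 60 counts in a library. The other members had at least 70 counts in every library.

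**Figure D1:**
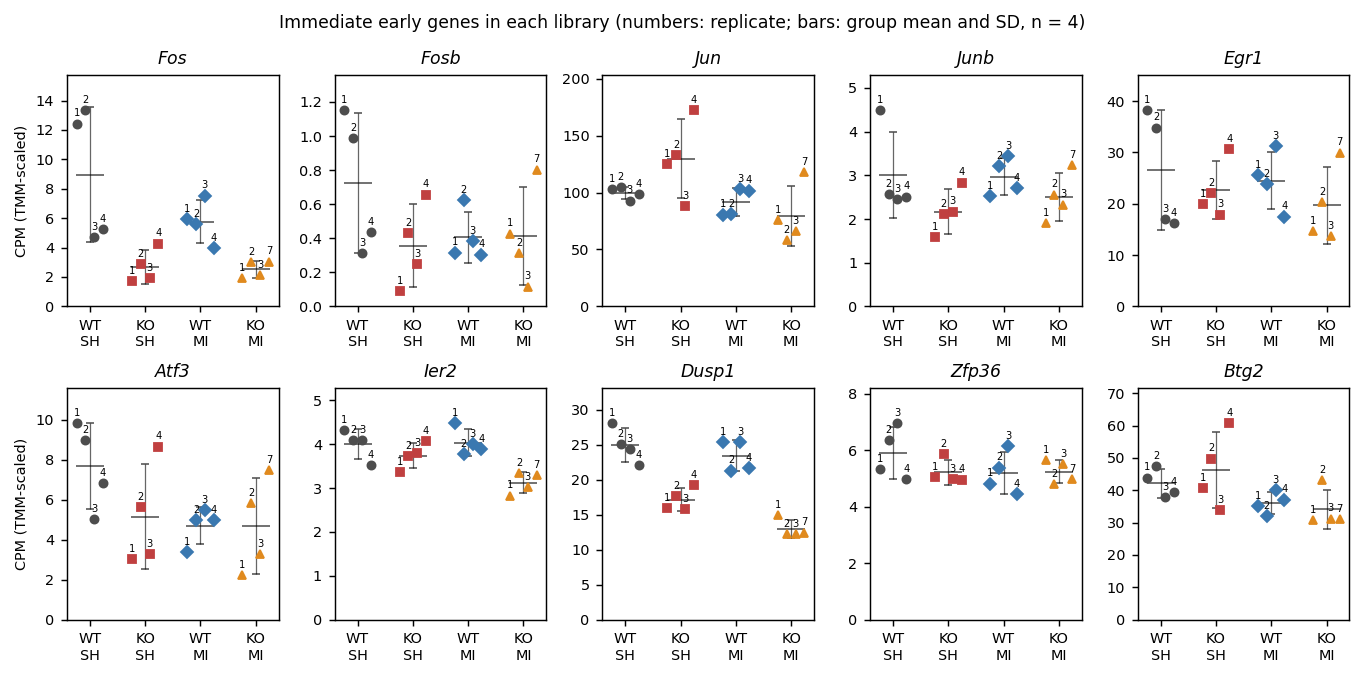
TMM-scaled CPM (vertical axis, from 0) of each immediate early gene in each library, by group (horizontal axis). Each point is 1 library with its replicate number, and horizontal and vertical bars are the group mean and SD (n = 4). *Dusp1* was below 19.3 CPM in every KO library and above 21.3 CPM in every WT library, whereas *Egr1* and *Zfp36* overlapped between all groups.

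KO SH was compared with WT SH to see the effect of *Lrrc10* loss without an infarct. *Fos* and *Dusp1* were lower in KO SH and the other 8 genes did not pass the test, which was the quasi-likelihood test of edgeR, with p adjusted by Benjamini-Hochberg over all genes tested. A gene was called at an adjusted p under 0.1 where its log2 fold change was also 0.5 or more in size. Of all genes tested, 5.01% were called in either direction and 2.53% were called and lower, against 2 of the 10 members, both lower. The median log2 fold change of the 10 members was -0.36, against 0.01 over all genes tested.

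*Fos* (ENSMUSG00000021250, chromosome 12, 85520658 to 85524047, + strand), the partner of JUN in AP-1, was at 12.4, 13.4, 4.72 and 5.25 CPM in WT SH replicates 1 to 4. In KO SH replicates 1 to 4 it was at 1.71, 2.89, 1.90 and 4.28 CPM. WT SH replicates 1 and 2 were high and replicates 3 and 4 low, and all 4 KO SH libraries lay under the lowest WT SH library, KO SH replicate 4 by a narrow margin. The fitted level was 3.36-fold lower in KO SH (log2 fold change -1.75, SE 0.34, adjusted p = 0.00491 in edgeR). An exact permutation test of the 8 libraries gave p = 0.0286 (two-sided), the smallest value that 4 against 4 allows.

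*Dusp1* (ENSMUSG00000024190, chromosome 17, 26724564 to 26781102, - strand), the phosphatase of MAP kinases, was at 28.1, 25.1, 24.4 and 22.1 CPM in WT SH. In KO SH it was at 15.98, 17.6, 15.8 and 19.2 CPM. The groups did not overlap, and the spread within each was small, with coefficients of variation of 9.83% and 9.39%. *Dusp1* was 1.46-fold lower in KO SH (log2 fold change -0.54, SE 0.09, adjusted p = 0.00211 in edgeR; exact permutation p = 0.0286). Without WT SH replicate 1, its highest library, the log2 fold change was -0.48 (adjusted p = 0.0095), short of the minimum for a call. The annotated gene overlaps the genes *Gm50275* and *Gm50274* on its own strand, so that part of its reads could be shared with them.

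*Fos* and *Dusp1* were the 2 members with no overlap between KO SH and WT SH, where 18.5% of all genes tested did not overlap in either direction and 10.2% were lower without overlap. *Junb* was at 3.01 ± 0.993 CPM in WT SH and 2.17 ± 0.514 CPM in KO SH (SD, n = 4), a log2 fold change of -0.49 (adjusted p = 0.189). *Atf3* had a log2 fold change of -0.59 (adjusted p = 0.322) and *Fosb* of -1.06 (adjusted p = 0.258), both with overlapping groups. *Egr1*, induced by the same signals as *Fos*, had a log2 fold change of -0.23 with a 95% interval from -0.83 to 0.36 (adjusted p = 0.676). *Jun* had a log2 fold change of 0.38 (adjusted p = 0.243), *Btg2* of 0.13, *Ier2* of -0.10 and *Zfp36* of -0.18, with adjusted p of 0.397 or more for these 3 in edgeR.

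KO MI was compared with WT MI to see the effect of *Lrrc10* loss in the infarcted heart. *Fos* and *Dusp1* were again called, both lower, where 1.73% of all genes tested were called in either direction and 1.16% were called and lower. *Fos* was at 5.95, 5.62, 7.53 and 3.97 CPM in WT MI replicates 1 to 4. In KO MI replicates 1, 2, 3 and 7 it was at 1.91, 2.99, 2.12 and 3.05 CPM. The lowest WT MI library lay above the highest KO MI library, and *Fos* was 2.30-fold lower in KO MI (log2 fold change -1.20, SE 0.34, adjusted p = 0.0872 in edgeR; exact permutation p = 0.0286). This call was near the threshold and was lost when WT MI replicate 1, 2 or 3 was left out (adjusted p = 0.177, 0.132 and 0.237). It was also lost without KO MI replicate 1, 2 or 3 (adjusted p = 0.159, 0.116 and 0.201) and without KO MI replicates 2 and 7 together (log2 fold change -1.51, adjusted p = 0.106). A robust quasi-likelihood fit left the log2 fold change at -1.20 with an adjusted p of 0.183.

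*Dusp1* was the most clearly separated member after MI. Its level was 25.3, 21.3, 25.4 and 21.7 CPM in WT MI, and 14.96, 12.2, 12.2 and 12.4 CPM in KO MI. No KO library came near the WT range. *Dusp1* was 1.81-fold lower in KO MI (log2 fold change -0.86, SE 0.09, adjusted p = 5.88e-05 in edgeR), and it was called under all 22 alternatives tried, with adjusted p of at most 0.00185.

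*Ier2* (ENSMUSG00000053560, chromosome 8, 85387960 to 85389483, - strand), a short nuclear immediate early gene product, was at 4.48, 3.77, 4.003 and 3.89 CPM in WT MI. It was at 2.83, 3.35, 3.03 and 3.29 CPM in KO MI. These groups did not overlap either, but the log2 fold change of -0.37 (adjusted p = 0.0758 in edgeR; exact permutation p = 0.0286) was under the minimum of 0.5. Thus 3 members, *Fos*, *Ier2* and *Dusp1*, had no overlap in this comparison, where 6.47% of all genes tested did not overlap in either direction and 3.73% were lower without overlap. The log2 fold changes of the other 7 members lay between -0.32 for *Egr1* and 0.01 for *Zfp36*, with adjusted p of 0.724 or more. The median of the 10 was -0.23, against 0.01 over all genes tested.

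**Figure D2:**
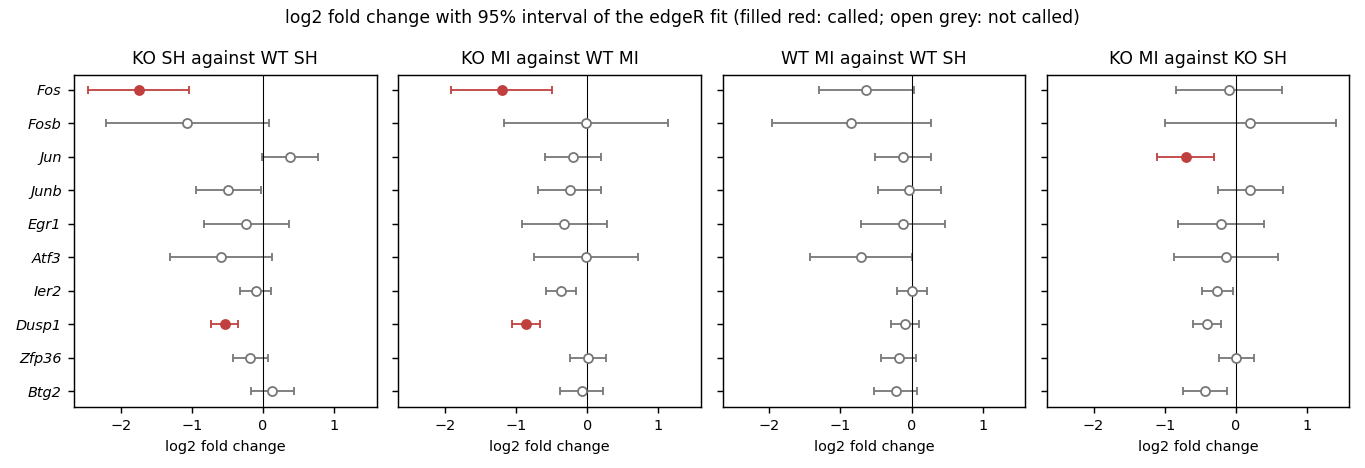
Log2 fold change (horizontal axis) of each immediate early gene (vertical axis) in the 4 comparisons between groups, with the 95% interval of the edgeR fit. Filled red points are called and open grey points are not: *Fos* and *Dusp1* lie below 0 in both comparisons of KO with WT, and *Jun* is the called gene in KO MI against KO SH.

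The comparison of KO MI with WT MI shares no library with that of KO SH with WT SH. Of the 10 members, 7 had a log2 fold change below 0 in both and none was above 0 in both, where 25.6% of all genes tested were below 0 in both. Most members vary together between libraries, as described below, so the 10 are not independent of each other. Averaged over the surgeries, *Fos* was 2.78-fold lower in KO libraries (log2 fold change -1.48, SE 0.24, adjusted p = 0.000719) and *Dusp1* 1.62-fold lower (log2 fold change -0.70, SE 0.07, adjusted p = 2.73e-06). These were the 2 members called, where 3.71% of all genes tested were called and 2.05% were called and lower. *Ier2* had an averaged log2 fold change of -0.24 (adjusted p = 0.0512), under the minimum. Without KO MI replicates 2 and 7 *Atf3* was called too, its averaged log2 fold change moving from -0.30 (adjusted p = 0.544) to -0.68 (adjusted p = 0.0786). An exact permutation test that reassigned libraries to KO and WT within each surgery, over 4900 splits, gave p = 0.000408 for *Fos* and for *Dusp1*, the smallest value it allows. The same exact test gave p = 0.00449 for *Ier2*, 0.0424 for *Junb* and 0.2 or more for the other 6 members, without adjustment for the 10 genes.

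Several measures of cell content and transcript makeup also differed between KO SH and WT SH. Of the 8 cardiomyocyte markers 7 had a log2 fold change below 0, 4 of them with an adjusted p under 0.1 and none past the minimum fold change (sum 29490 to 30329 CPM in KO SH, 30222 to 41793 CPM in WT SH). The mitochondrial ribosomal RNA *mt-Rnr2* took 37.1% to 37.6% of the counts in KO SH and 35.7% to 36.3% in WT SH. The 6 endothelial markers summed to 817 to 863 CPM in KO SH and 891 to 914 CPM in WT SH. None of them had an adjusted p under 0.1, and 4 had a log2 fold change below 0 and 2 above 0. The 6 smooth muscle and pericyte markers summed to 659 to 716 CPM in KO SH and 757 to 865 CPM in WT SH, of which *Acta2* was called lower (log2 fold change -0.56). Other markers of that set lay above 0, *Myh11* at 0.42 (adjusted p = 0.0328, under the minimum) and *Cnn1* at 0.11. The 7 erythroid markers summed to 417 to 498 CPM in KO SH and 528 to 731 CPM in WT SH, with *Hbb-bt* called lower (-1.86). The 12 skeletal muscle markers summed to 306.8 to 349.6 CPM and 349.7 to 453.8 CPM, with *Acta1* called lower (-1.67). Of the 8 skeletal muscle markers tested, 5 had a log2 fold change below 0 and 3 above 0, with a median of -0.13 and 1 called. Of the 7 macrophage markers *C1qa* and *C1qb* were called lower (sum 23.9 to 26.8 CPM in KO SH, 25.8 to 31.4 CPM in WT SH), and of the 6 neutrophil markers *S100a8* and *S100a9* were called higher at sums of at most 2.90 CPM. In KO MI against WT MI the endothelial sums overlapped (689 to 832 CPM and 742 to 835 CPM), as did the macrophage sums (32.6 to 75.5 CPM and 35.2 to 61.7 CPM), and 3 of 12 skeletal muscle markers were called higher. Of the erythroid markers *Hba-a2* (0.81) and *Alas2* (1.07) were called higher there, at sums of 355 to 1146 CPM in KO MI and 452 to 637 CPM in WT MI. The part of these cells and transcripts in the levels of *Fos* and *Dusp1* was not tested.

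Sex was tested by keeping the libraries with Y-linked transcripts, which left 4 WT SH and 2 libraries of each other group. *Fos* then had a log2 fold change of -1.55 in KO SH against WT SH (adjusted p = 0.111) and of -1.39 in KO MI against WT MI (adjusted p = 0.403), neither called, and *Dusp1* was called in both. With the *Xist* level as a covariate in all 16 libraries, *Fos* and *Dusp1* were called in both comparisons.

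WT MI was compared with WT SH to see the response of the regenerating heart. By 7 days after surgery none of the 10 genes was called, none had an unadjusted p under 0.05 in edgeR, and DESeq2 called none either, where 2.78% of all genes tested were called in edgeR and 16.5% had an unadjusted p under 0.05. No member was without overlap between the groups, where 12.1% of all genes tested were. *Fos* lay within the range of WT SH in 3 of the 4 WT MI libraries, and its log2 fold change was -0.64 with a 95% interval from -1.31 to 0.03 (adjusted p = 0.33). *Atf3* was at 9.82, 8.98, 5.03 and 6.84 CPM in WT SH and at 3.36, 4.99, 5.47 and 4.996 CPM in WT MI, a log2 fold change of -0.71 (adjusted p = 0.309). In a fit of these 2 groups alone *Atf3* was called (log2 fold change -0.71, adjusted p = 0.0674). The narrowest intervals were those of *Dusp1*, from -0.28 to 0.10, and of *Ier2*, from -0.20 to 0.22.

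In KO MI against KO SH, the response of hearts without LRRC10, *Jun* was the member called, where 7.42% of all genes tested were called and 2.11% were called and lower. *Jun* (ENSMUSG00000052684, chromosome 4, 94937271 to 94940459, - strand), the core partner of AP-1, was at 125, 133, 88.1 and 173 CPM in KO SH. It was at 75.7, 58.4, 66.3 and 118 CPM in KO MI. The groups overlapped, since KO MI replicate 7 lay above KO SH replicate 3, and the log2 fold change was -0.71 (SE 0.19, adjusted p = 0.0225 in edgeR; exact permutation p = 0.0571). With the libraries holding Y-linked transcripts alone it was -0.50 (adjusted p = 0.481), not called, and without KO MI replicates 2 and 7 it was -0.87 and called. The antisense gene *Junos* overlaps *Jun*, and the library kit marks strand.

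*Dusp1* was lower in KO MI than in KO SH without overlap, with a log2 fold change of -0.40 (adjusted p = 0.0112 in edgeR), under the minimum for a call. With the libraries holding Y-linked transcripts alone it was -0.51 (adjusted p = 0.0553) and called. *Ier2* also did not overlap (log2 fold change -0.26, adjusted p = 0.111), where 14.9% of all genes tested did not overlap in either direction and 7.24% were lower without overlap. *Btg2* had a log2 fold change of -0.44 (adjusted p = 0.061), which passed the minimum without KO SH replicate 3 (-0.56, adjusted p = 0.0205), without KO MI replicate 2 (-0.57, adjusted p = 0.0227) and without KO MI replicates 2 and 7 (-0.57, adjusted p = 0.0315). *Fos* overlapped between the groups and was not called (log2 fold change -0.09, 95% interval -0.84 to 0.66). Averaged over WT and KO, no member was called for MI against SH in edgeR or DESeq2, where 6.11% of all genes tested were called. An unadjusted p under 0.05 there, which 27.2% of all genes tested had, was found for 3 members, *Jun* (-0.42), *Btg2* (-0.33) and *Dusp1* (-0.25).

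Whether the KO effect differed between MI and SH was tested by the interaction. No member was called in edgeR or DESeq2, and 0.0248% of all genes tested were. An unadjusted p under 0.05 in edgeR, which 13.6% of all genes tested had, was found for 2 members: *Jun* with an interaction of -0.58 on the log2 scale (adjusted p = 0.349) and *Dusp1* with -0.31 (adjusted p = 0.305). Without KO MI replicate 7 *Jun* was called, at -0.83 (adjusted p = 0.0394). For *Fos* the interaction was 0.55 with a 95% interval from -0.45 to 1.55.

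Libraries of the same group differed together in most of these genes. For each gene the mean of its group was taken off log2(CPM + 0.5), and the deviations were correlated over the 16 libraries. The median Pearson r over the 45 pairs of members was 0.445 (jackknife SE 0.158), and 40 pairs were above 0. Each member's own median r with all genes tested lay close to 0, for example 0.00134 for *Fos* and -0.00649 for *Egr1*. KO SH replicate 4 was the highest of its group for 9 of the 10 genes, WT MI replicate 3 for 8, and WT SH replicate 1 and KO MI replicate 7 for 6 each. WT SH replicate 3 was the lowest of its group for 6 genes and replicate 4 for the other 4.

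*Zfp36* was the member that did not vary with the others. Its r with the mean standardised deviation of the other 9 members was -0.02, higher than that of 48.4% of all genes tested, and it lay between 4.45 and 6.95 CPM in all 16 libraries. The same measure was 0.90 for *Fos*, 0.88 for *Egr1*, 0.77 for *Fosb*, 0.76 for *Atf3* and 0.70 for *Junb*. For *Btg2* it was 0.61, for *Ier2* 0.58, for *Dusp1* 0.52 and for *Jun* 0.51. Over all genes tested, 5% lay below -0.50 and 5% above 0.50. Libraries share depth and cell content across genes, so these values describe the libraries and carry no p.

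**Figure D3:**
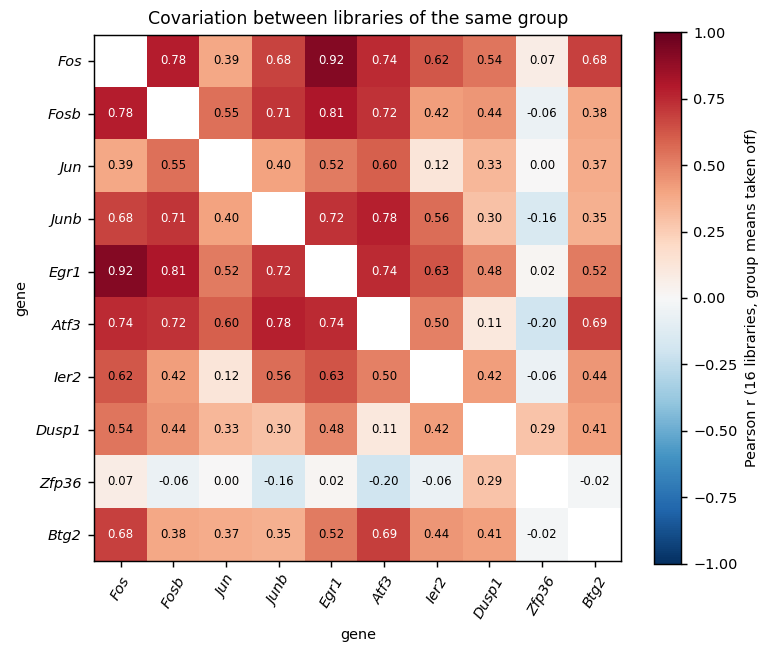
Pearson r between each pair of immediate early genes (both axes) over 16 libraries, after the group means of log2(CPM + 0.5) were taken off. Colour and number give r, which was highest for *Fos* with *Egr1* (0.92) and close to 0 or below for most pairs with *Zfp36*.

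Outside the list, genes with a mean of at least 5 CPM were ranked by their r with the members' mean standardised deviation over the 16 libraries. The highest of 9508 were *Irs2* (0.85), which encodes an adaptor of the insulin receptor, *Nr4a1* (0.80), an orphan nuclear receptor, *Trabd2b* (0.79) and the AP-1 gene *Fosl2* (0.79). They were followed by *R3hcc1* (0.78), the Mediator subunit gene *Med26* (0.78), the collagen gene *Col6a3* (0.78) and *Rusc2* (0.77).

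*Fos* and *Egr1* varied most closely together. Their group-centred r was 0.92 and their Spearman rho 0.91 over 16 libraries, with permutation p of 0.00018 and 0.0001 (100000 draws within groups, adjusted over the 9 relations of *Fos* 0.00162 and 0.0009). The r was 0.90 without WT SH replicates 2 and 3, the libraries farthest from the median of *Fos*. There were 5 other relations with an adjusted permutation p under 0.05 by both measures: *Fosb* (r 0.78), *Atf3* (0.74), *Btg2* (0.68), *Junb* (0.68) and *Ier2* (0.62). *Dusp1* had r = 0.54 (adjusted permutation p = 0.0675), *Jun* 0.39 (0.102) and *Zfp36* 0.07 (0.814).

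The level of *Egr1* overlapped between all groups, whereas the ratio of *Fos* to *Egr1* did not overlap between KO and WT. *Egr1* was at 38.3, 34.9, 16.96 and 16.3 CPM in WT SH, at 19.97, 22.1, 17.9 and 30.7 CPM in KO SH, at 25.5, 23.9, 31.2 and 17.5 CPM in WT MI, and at 14.6, 20.4, 13.7 and 30.0 CPM in KO MI. *Fos* CPM as a percentage of *Egr1* CPM, a measure chosen after the values were seen, was 32.5%, 38.3%, 27.8% and 32.3% in WT SH and 8.58%, 13.0%, 10.6% and 13.9% in KO SH. It was 23.3%, 23.5%, 24.2% and 22.7% in WT MI and 13.1%, 14.7%, 15.4% and 10.2% in KO MI. Every KO library thus lay under every WT library. The coefficient of variation within WT MI was 2.59% for this ratio and 25.3% for the *Fos* level, and within WT SH it was 13.2% and 51.4%. The difference was smaller in the KO groups, with 17.5% for the ratio and 23.3% for the level in KO MI, and 20.98% and 43.6% in KO SH.

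The log2 ratio differed by -1.34 between KO SH and WT SH and by -0.69 between KO MI and WT MI (exact permutation p = 0.0286 each), and by -1.02 over both surgeries (exact permutation p = 0.000408, the smallest it allows). It was also lower in WT MI than in WT SH without overlap (-0.44, exact permutation p = 0.0286), and overlapped between KO MI and KO SH. *Dusp1* relative to *Egr1* differed by -0.43 over both surgeries (exact permutation p = 0.058). Over both surgeries the ratios of the other members had exact permutation p of 0.176 or more. Within single comparisons the ratio of *Fosb* differed by -0.35 between KO SH and WT SH with overlapping groups (exact permutation p = 0.0286), those of *Jun* and *Junb* by -0.47 and 0.41 between KO MI and KO SH (exact permutation p = 0.0571 each), and that of *Atf3* by -0.59 between WT MI and WT SH (exact permutation p = 0.0857). With the *Egr1* level as a covariate in the edgeR fit, *Fos* and *Dusp1* were called in both comparisons of KO with WT. The log2 fold change of *Fos* was then -1.49 in KO SH against WT SH (adjusted p = 1.54e-05) and -0.79 in KO MI against WT MI (adjusted p = 0.012). This covariate was chosen after seeing the data, and *Egr1* is the member with the highest r with *Fos* (0.92). These adjusted p are therefore not separate support for the calls.

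**Figure D4:**
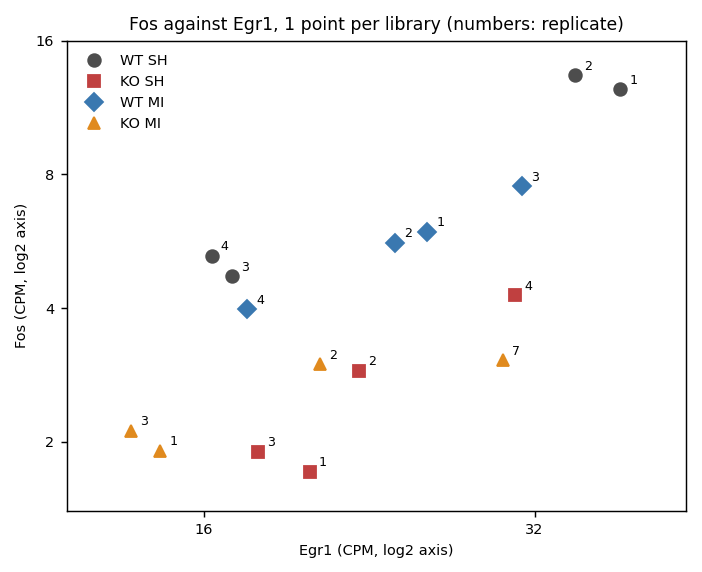
*Fos* against *Egr1* (CPM, both axes log2), 1 point per library with its replicate number, coloured by group. In each group the library highest in *Egr1* is highest or second in *Fos*, and the KO points lie under the WT points at the same *Egr1* level.

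The group-centred *Fos* level was also set against 13 measures of the libraries: total counts, 2 mitochondrial shares, heat shock genes and 9 sets of cell type markers. The heat shock genes and each marker set entered as the mean of log2(CPM + 0.5) over their genes, not as summed CPM. Its r with total counts was -0.10. The share of mitochondrial messenger transcripts had r = -0.60 (adjusted permutation p = 0.0494) and rho = -0.55 (0.116). The share of *mt-Rnr2* had r = -0.35 (0.0494) and rho = -0.59 (0.0747), and the skeletal muscle markers had r = 0.40 (0.0494) and rho = 0.60 (0.0747). Without WT SH replicates 2 and 3 these r were -0.60, -0.35 and 0.44. The other 9 measures of content, heat shock genes (0.37) and fibroblast markers (0.59) among them, had an adjusted permutation p of 0.197 or more. No label gives the order or time of harvest, so its part was not tested.

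Other genes of the pathway were taken from 5 lists, chosen with earlier results of these data known. Of the other immediate early genes, 13 of the 31 tested were called lower and none higher in KO SH against WT SH. Of all genes tested, 2.53% were called and lower there. The median of the 31 log2 fold changes was -0.40, against 0.01 over all genes tested. Leaving out any 1 library of these groups left 11 to 12 called, and the *Xist* level as a covariate left 10. *Nr4a1* was at 33.5, 41.2, 22.4 and 24.3 CPM in WT SH and at 4.19, 6.02, 5.72 and 7.37 CPM in KO SH, 5.23-fold lower (log2 fold change -2.39, SE 0.21, adjusted p = 2.86e-06). *Nr4a3*, of the same orphan receptor family, was at 23.7, 27.1, 11.8 and 19.2 CPM in WT SH and at 1.78, 3.13, 2.80 and 2.99 CPM in KO SH (log2 fold change -2.94). Both receptors showed KO SH libraries far under the WT SH range. *Sik1*, a kinase that restrains CREB coactivators, had a log2 fold change of -1.29, the transcription factor gene *Klf4* of -1.18, *Gem*, which inhibits calcium channels, of -1.45, and *Nr4a2* of -0.93.

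In KO MI against WT MI 1.16% of all genes tested were called and lower. Of the 31, 4 were called lower there and none higher (median -0.12). These were *Nr4a1* (log2 fold change -1.34, adjusted p = 0.00288), *Rgs2*, a regulator of G protein signaling (-1.20, adjusted p = 0.00355), *Klf4* (-0.82, adjusted p = 0.00119) and *Gem* (-0.69, adjusted p = 0.0517). Without KO MI replicates 2 and 7 the first 3 were called and *Gem* was not (-0.65, adjusted p = 0.206). *Gem* was also lost without KO MI replicate 2 or 3 or WT MI replicate 1 or 4 (adjusted p = 0.115, 0.141, 0.101 and 0.145). *Nr4a3* and *Sik1* were called in the interaction, with 2.99 (adjusted p = 0.0033) and 0.84 (adjusted p = 0.0399) on the log2 scale, where 5 of all genes tested were called. *Nr4a3* was called in every alternative run for the interaction. *Sik1* was lost without KO MI replicate 3, WT MI replicate 1 or 3, or WT SH replicate 1 or 2 (adjusted p from 0.101 to 0.137), and was called without KO MI replicates 2 and 7 (0.81, adjusted p = 0.00896). Without these libraries *Bhlhe40* (0.70) was called higher and *Klf10* (-0.58) lower, without KO MI replicate 7 alone 8 of the 31 were called higher and 1 lower, and DESeq2 called 8 higher. *Nr4a3* was at 5.95, 4.54, 3.73 and 4.21 CPM in WT MI and at 3.44, 7.03, 4.82 and 3.77 CPM in KO MI, where the groups overlapped.

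In WT MI against WT SH 130 of the 20159 genes tested were called lower. Of the 31 other immediate early genes, 7 were called lower there and none higher, although none of the 10 members was called. They included *Nr4a3* (-2.15), *Nr4a1* (-1.91), *Sik1* (-0.98), *Gem* (-0.75), the clock gene *Per1* (-0.66) and the kinase gene *Pim1* (-0.52). *Pim1* fell under the minimum without WT MI replicate 1 or 2 or WT SH replicate 1 (-0.47 in each). In KO MI against KO SH 1070 of the 20159 genes tested were called higher and 425 lower. Of the 31, 5 were called higher there and 1 lower. *Ptgs2* (2.69), the inducible cyclooxygenase gene, *Nr4a3* (0.84), *Socs3* (0.66), *Cebpd* (0.54) and *Plk3* (0.53) were higher, and *Nr4a1* (-0.87) was lower. Without KO MI replicates 2 and 7, *Ptgs2* (2.58), *Socs3* (0.64), *Cebpd* (0.56) and *Nr4a1* (-1.25) were called, while *Nr4a3* (0.63, adjusted p = 0.191) and *Plk3* (0.37, adjusted p = 0.247) were not. Without KO MI replicate 2 alone, 2 of the 5 higher genes were called, *Ptgs2* and *Socs3*, and *Cebpd* had a log2 fold change of 0.41 (adjusted p = 0.213). *Cebpd* was also lost without KO MI replicate 3 or any 1 KO SH library, *Nr4a3* without KO SH replicate 1, *Plk3* without KO SH replicate 3 and *Socs3* without KO MI replicate 3.

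Of the 11 AP-1 and ATF partners tested, *Fosl2* was called lower in KO SH against WT SH. *Fosl2*, a relative of *Fos*, was at 49.98, 51.3, 42.2 and 42.1 CPM in WT SH, at 23.8, 28.7, 23.8 and 29.5 CPM in KO SH, and at 27.6, 28.5, 33.9 and 29.0 CPM in WT MI. Its log2 fold change was -0.81 in KO SH against WT SH (adjusted p = 0.000109) and -0.64 in WT MI against WT SH (adjusted p = 0.00216), and *Batf3* was called higher in KO MI against KO SH (0.99). *Batf3* was lost without KO MI replicates 2 and 7 (0.80, adjusted p = 0.236), and without KO MI replicate 2 or 3 or KO SH replicate 2 or 3. Of the 20 feedback genes, *Dusp5*, a phosphatase of nuclear ERK, was called lower in KO SH (-1.04) and in WT MI (-0.54) against WT SH. *Tob2* was called lower in WT MI against WT SH (-0.60), and *Dusp4* higher in KO MI against KO SH (0.59). *Dusp4* was at 0.32 (adjusted p = 0.311) without KO MI replicate 2 and at 0.28 (adjusted p = 0.403) without replicates 2 and 7, and was also lost without KO SH replicate 1, 2 or 3. *Dusp5* fell under the minimum in WT MI against WT SH without WT MI replicate 2 (-0.50) or WT SH replicate 1 (-0.45). None of these 31 partners and feedback genes was called in KO MI against WT MI by edgeR, where 1.73% of all genes tested were, and 9 of them had an unadjusted p under 0.05, where 12.4% of all genes tested had one. Without KO MI replicates 2 and 7 *Dusp5* (-0.60, adjusted p = 0.0133) and *Maff* (-0.74, adjusted p = 0.094) were called lower there.

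None of the 20 upstream kinases and factors was called in KO SH against WT SH, KO MI against WT MI or WT MI against WT SH by edgeR, with 6, 1 and 3 of them at an unadjusted p under 0.05. Of all genes tested, 5.01%, 1.73% and 2.78% were called in these comparisons, and 22.8%, 12.4% and 16.5% had an unadjusted p under 0.05. *Rps6ka5*, a kinase of CREB and histone H3, was called lower in KO MI against KO SH (-0.52). It was called without KO MI replicates 2 and 7 (-0.59, adjusted p = 0.000262) and fell under the minimum without KO MI replicate 2 alone (-0.36), KO MI replicate 3, or KO SH replicate 1 or 2. In the interaction it was called lower without KO MI replicates 2 and 7 (-0.51, adjusted p = 0.0167) but not with all libraries (-0.44). None of the 11 heat shock genes was called in those first 3 comparisons by edgeR, with 4, 3 and 2 at an unadjusted p under 0.05, and *Hspb1* was called higher in KO MI against KO SH (0.54). *Hspb1* was at 0.38 (adjusted p = 0.101) without KO MI replicate 2 and at 0.27 (adjusted p = 0.249) without replicates 2 and 7.

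**Figure D5:**
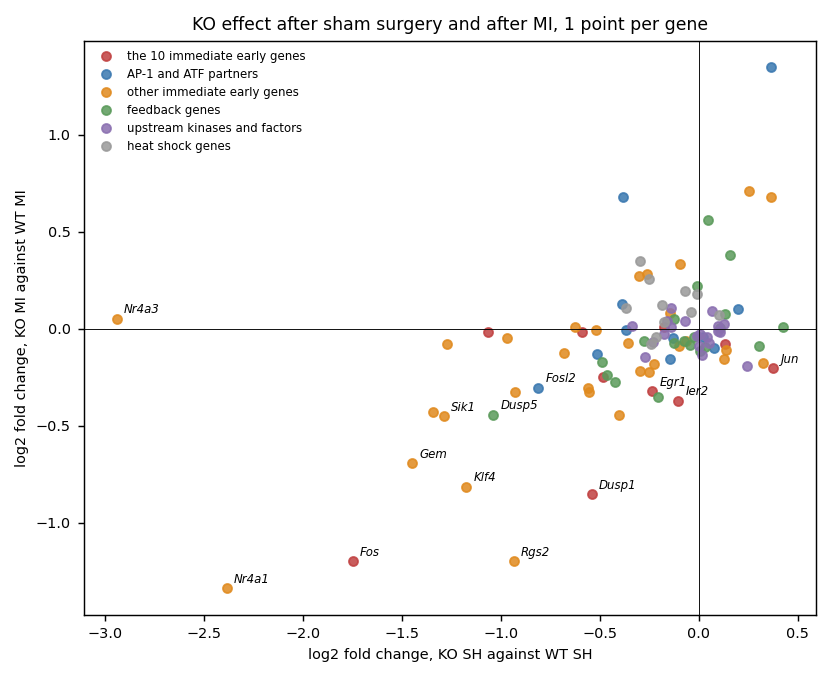
Log2 fold change in KO SH against WT SH (horizontal axis) and in KO MI against WT MI (vertical axis), 1 point per gene, coloured by list. *Nr4a1*, *Fos*, *Gem*, *Klf4*, *Rgs2* and *Dusp1* lie at the lower left, *Nr4a3* is low on the horizontal axis alone, and upstream kinases and factors sit near 0.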

How the data were processed

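Total RNA of 16 ventricle samples was sequenced from libraries of a kit that marks strand. The authors deposited RSEM expected counts per gene, whole numbers without normalization. Their methods name Skewer, STAR and RSEM with GRCm39. The submitters' processing notes instead list cutadapt (3.4), HISAT2 (2.2.1) and RSEM (1.1.17). The annotation release is not given in the sources used here, so 47772 of 51912 identifiers were named from GENCODE release M39 by identifier. RSEM splits shared reads between genes, and the error of that split is not in the counts.

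Counts were analysed in R (4.3.3) with edgeR (4.0.16): TMM scaling, 1 coefficient per group, all 16 libraries, quasi-likelihood F-tests (two-sided) and Benjamini-Hochberg adjustment over 20159 genes. The filter, the adjusted p under 0.1 and the log2 minimum of 0.5 follow the study's methods, which used DESeq2. DESeq2 (1.42.0) was an alternative here. The edgeR comparison of KO SH with WT SH was also run on simulated counts, which did not cover the other comparisons or tests. Exact and permutation tests on log2(CPM + 0.5) were coded in Python (3.11.15) with numpy (2.4.6), and scipy (1.17.1) gave the Spearman rho of pairs. Promoters were read from GRCm39 with pysam (0.24.0). Depth sets the precision: 3 counts correspond to 0.0577 to 0.0858 CPM.

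Groups and replicate numbers come from the labels of the libraries. The study describes hearts of separate mice, while the labels give numbers alone, so p-values measure the spread between these libraries. The same replicate number did not pair libraries (r of deviations from -0.06 to 0.18). The members and lists were chosen with earlier results of these data known. Genes named beside the 10 members are those called, at most the 6 with the smallest p per list and comparison, and the 8 most like the members. Alternatives covered scaling, filters, thresholds, covariates, a replicate block and left-out libraries, and those of listed genes were added after seeing the data. Sequence of *Egr1* is not shown.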

Additional observations from a re-analysis of the deposited data

Results flagged for a closer look

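Of 40 groups of 4 libraries, 1 for each member and group, 4 held a library whose gap to the nearest other library took up most of the range of its group (Dixon's criterion at 95%). Chance gives about 1 such group in 20. *Junb* was at 4.499 CPM in WT SH replicate 1 and between 2.46 and 2.57 CPM in the other WT SH libraries. *Dusp1* was at 14.96 CPM in KO MI replicate 1 and between 12.2 and 12.4 CPM in the others, so the exception lay towards the WT level. *Zfp36* was at 5.86 CPM in KO SH replicate 2, against 4.96 to 5.05 CPM. *Btg2* was at 43.2 CPM in KO MI replicate 2, one of the 2 libraries left out together for skeletal muscle transcripts, against 30.8 to 31.3 CPM. The cause was not tested in any of the 4.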

How the results depend on the processing

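For single members and comparisons, 407 of 438 results of alternatives kept the direction and the side of the threshold, and none turned its direction. The number of members called was 2 in KO SH against WT SH and became 1 without WT SH replicate 1 (range 1 to 2 over the left-out libraries) and 1 with the libraries holding Y-linked transcripts, a choice made after seeing the data, as was the *Egr1* covariate. In KO MI against WT MI it was 2 and became 1 with a robust fit, with an adjusted p under 0.05, without KO MI replicates 2 and 7, and with the libraries holding Y-linked transcripts, ranged from 1 to 2 over the left-out libraries, and rose to 3 (with *Ier2*) without a minimum fold change. *Fos* alone was left without WT SH replicate 1, and *Dusp1* alone in the rest; the cause was not tested. In WT MI against WT SH it rose from 0 to 1 (*Atf3*) in a fit of the 2 groups alone. In KO MI against KO SH it rose from 1 to 3 without a minimum fold change and to 2 without KO MI replicates 2 and 7, and ranged from 1 to 2 over the left-out libraries. For the interaction it rose from 0 to 1 with a replicate block (*Jun*, -0.74, adjusted p = 0.065) and ranged from 0 to 1 over the left-out libraries. The block changed no other count of calls of the 10 members. For the average effect of MI it rose from 0 to 3 without a minimum fold change and to 1 (*Atf3*, -0.80, adjusted p = 0.0261) without KO MI replicates 2 and 7, and ranged from 0 to 2 over the left-out libraries. The 2 members called for the averaged KO effect were called in all 16 fits without 1 library, and 3 were called without a minimum fold change (with *Ier2*) and without KO MI replicates 2 and 7 (with *Atf3*). With DESeq2 size factors the exact permutation test placed 1 member, not 2, at its smallest p in KO MI against KO SH. The median r of the 45 pairs ranged from 0.378 to 0.528 over the left-out libraries and from 0.447 to 0.474 under 5 other settings. With 4 to 60 counts in a library, *Fosb* had an SE of 0.55 on the log2 scale in KO SH against WT SH, so that a change of the size of *Dusp1* was not detectable.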
